A study of Mus musculus with 5 samples.

Results

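Neurons are built on a skeleton of microtubules and neurofilaments. The expression of 10 genes, of that skeleton and, for Gap43, of the growth cone, was followed while mouse embryonic stem cells became motor neurons. The genes were Dcx, Tubb3, Map2, Mapt, Stmn2, Nefl, Nefm, Nefh, Ina and Gap43, 10 of the 19897 genes with a matched probe. They were chosen by gene name as well known genes of the neuronal cytoskeleton and growth cone. Earlier results of these data were known at that choice, so the counts below describe the members and are no independent test. All of them had a probe, 16 probes in total. From Day4 to Day7 every member rose at least 2-fold, against 17.8% of all genes. Between ES cells and Day4, Nefh, Stmn2, Ina, Nefl and Mapt fell at least 2-fold, against 14.2% of all genes. Dcx rose, against 15.4%, and Tubb3, Map2, Nefm and Gap43 stayed within 2-fold. That interval was added after the data had been seen, and with no normalization most genes were lowered over it.

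RNA came from male wild-type cells at 5 time points, each hybridized to 1 Agilent one-colour array, so no value has a replicate, the number of arrays limits the precision, and no test between time points could be made. ES denotes undifferentiated stem cells. Day2 denotes embryoid bodies exposed to retinoic acid (RA) for 8 h, Day3 and Day4 those given RA for 1 and 2 days, and Day7 the motor neuron stage, labelled as 5 days of RA. The labels add Shh, the ventralizing morphogen of the neural tube, as a companion of RA and place both agents between days 2 and 5, and the study used a Smoothened agonist to activate that pathway. Each sample was RNA from a whole culture, so a larger share of neurons and more RNA per neuron cannot be told apart.

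Microtubules are polymers of tubulin that carry transport along the axon, and proteins bound to their surface decide how stable they are. Neurofilaments are intermediate filaments found in neurons, assembled from several subunits, and they fill the axon and set its width. Motor neurons, with their long and thick axons, are rich in both.

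Signals are given as quantile-normalized log2 signal, a scale on which a difference of 1 is a 2-fold change, and 2-fold was the size from which a gene was called raised or lowered. A signal that the scanner software did not mark as well above background was taken as a bound. Of mouse probes, 59.2% passed this mark for ES cells, 86.7% at Day2, 57.5% at Day3, 65.7% at Day4 and 62.4% at Day7. Day2 stood apart with the largest share, which bears on Dcx, the member that was dim in ES cells. The Day7 array lay on a slide of its own and the other 4 arrays shared a slide, so the Day7 stage and its slide cannot be told apart. The E1A spike-in probes, which report RNA added at labelling, also stood apart there: their median log2 signal before normalization was 16.38 for ES cells, 16.27 at Day2, 15.75 at Day3, 16.30 at Day4 and 6.79 at Day7, over 10 probes. Their part in the Day7 changes was not tested.

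Among the microtubule genes, Tubb3 encodes the neuronal beta-tubulin that is a common marker of young neurons. Its log2 signal was 11.72 for ES cells, 11.87 at Day2, 11.54 at Day3, 12.32 at Day4 and 16.50 at Day7. The first 4 time points lay within less than 2-fold of each other, and Day7 stood 18.2-fold above Day4. Map2, a microtubule-associated protein of dendrites and cell bodies, had log2 signals of 6.76 for ES cells, 6.73 at Day2, 7.91 at Day3, 7.63 at Day4 and 13.57 at Day7. It was low until Day4 and then rose 61.6-fold. The other Map2 probe rose by 5.47 on the log2 scale in that step.

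Mapt encodes tau, which binds axonal microtubules, and gave log2 signals of 10.80 for ES cells, 9.26 at Day2, 9.47 at Day3, 9.77 at Day4 and 16.64 at Day7. The signal was thus lowest in the RA-treated embryoid bodies and highest in the Day7 culture, 116-fold above Day4. All 3 Mapt probes rose from Day4 to Day7, by 6.86, 7.08 and 6.85 on the log2 scale. They disagreed on the interval from ES cells to Day4, where the changes were -1.03, -1.17 and 0.50.

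Stmn2 encodes a stathmin of growth cones that binds tubulin and keeps microtubules dynamic. The log2 signal of Stmn2 was 13.06 for ES cells, 11.48 at Day2, 10.57 at Day3, 10.13 at Day4 and 17.22 at Day7. Its first 3 steps were -1.58, -0.90 and -0.45 on the log2 scale, which made a fall of 7.61-fold from ES cells to Day4, and it then rose 136-fold. Day7 was 17.9-fold above ES cells, a log2 change of 4.16 that was 3.15 with arrays aligned at their 75th percentile instead (the 75th percentile shift) and 3.51 with no normalization.

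Dcx encodes doublecortin, which binds microtubules in migrating and newly formed neurons. For ES cells its brightest probe, at a log2 signal of 3.99, was not well above background, and it read 6.99 at Day2, 6.15 at Day3, 8.02 at Day4 and 15.60 at Day7. Dcx was the one member without a clear signal in ES cells, and its Day7 signal was 191-fold above Day4 and at least 1540-fold above ES cells. That last difference, a log2 change of at least 10.59, was 9.19 with the normexp background correction, 9.02 with the floor for dim probes set at the ERCC probes, controls whose sequences are not from mouse, and 6.68 with the mean over its probes. By that mean the log2 change from Day4 to Day7 was 6.36, against 7.58. The early part of this course is less sure: the other 2 Dcx probes first passed the background mark at Day4 and at Day7. From ES cells to Day2, the change of Dcx was 0.76 with normexp and 0.00 with the mean over its probes. With the ERCC floor Dcx had no value from ES cells to Day2.

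**Figure D1:**
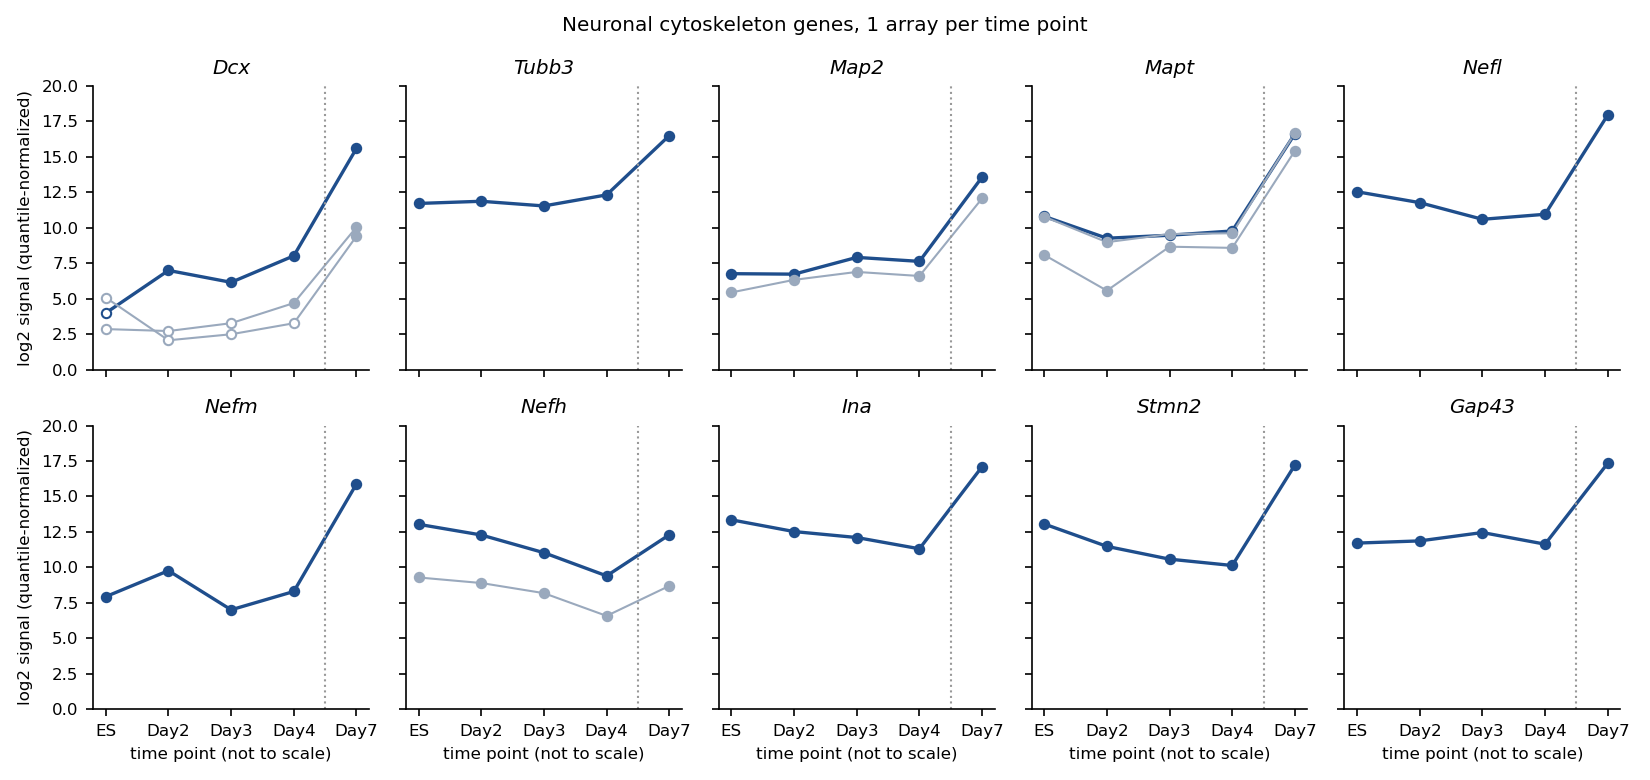
Quantile-normalized log2 signal (vertical axis) of the 10 genes at the 5 time points (horizontal axis, not to scale), with 1 array per time point and no error bars because there are no replicates. Dark lines are the probe used for the gene and grey lines its other probes, open points were not well above background, and the dotted line separates the slide of the first 4 arrays from that of Day7. In each panel the signal rises between Day4 and Day7, and in that of Nefh it ends less than 2-fold from its ES value (12.29 against 13.03).

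The neurofilament genes differed more among themselves. Nefl, the light subunit on which neurofilament assembly depends, had log2 signals of 12.54 for ES cells, 11.77 at Day2, 10.60 at Day3, 10.95 at Day4 and 17.95 at Day7. It was 3.01-fold lower on Day4 than in ES cells and 128-fold higher on Day7 than on Day4. Ina encodes alpha-internexin, a subunit that appears early in developing neurons. Here Ina had log2 signals of 13.35 for ES cells, 12.52 at Day2, 12.10 at Day3, 11.31 at Day4 and 17.10 at Day7, so that it fell 4.12-fold up to Day4 and rose 55.5-fold afterwards.

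Nefm, the medium subunit, had log2 signals of 7.93 for ES cells, 9.76 at Day2, 7.0 at Day3, 8.30 at Day4 and 15.88 at Day7. Before Day7 it had a peak on Day2, 3.56-fold above ES cells, and fell 6.77-fold by Day3. This probe was printed in 10 spots, and the SD of log2 signal between its spots was 0.05 for ES cells, 0.12 at Day2, 0.10 at Day3, 0.05 at Day4 and 0.05 at Day7. These SDs cover spot-to-spot error within an array, not error between cultures, and the early changes of Nefm were larger. From Day4 to Day7 Nefm rose 193-fold. In the RefSeq annotation Nefl and Nefm lie close to each other on chromosome 14, with Gm19216 and 0 protein-coding genes between them, yet the Day2 peak was seen for Nefm and not for Nefl.

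Nefh, the heavy subunit, which is the last of the 3 to accumulate as axons mature, took another course. Its log2 signal was 13.03 for ES cells, 12.28 at Day2, 11.03 at Day3, 9.40 at Day4 and 12.29 at Day7. It was lowest on Day4, 12.4-fold below ES cells, and regained 7.45-fold by Day7. The second Nefh probe was also lowest on Day4, with changes of -2.71 from ES cells to Day4 and 2.12 from Day4 to Day7 on the log2 scale. Nefh was the member that did not end above its ES signal: the change from ES cells to Day7 was -0.74, and -0.60 by the second probe.

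Gap43 encodes a membrane protein of growth cones. The log2 signal of Gap43 was 11.71 for ES cells, 11.86 at Day2, 12.45 at Day3, 11.63 at Day4 and 17.34 at Day7. It stayed within less than 2-fold over the first 4 time points and then rose 52.3-fold.

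The scanner software gave the signal of the probes used for these genes an error of about 10% of its value. The larger errors among these probes were 46.3% for Dcx in ES cells and 14.6% for Dcx on Day3. This estimate is for an array alone and leaves out differences between cultures, so neighbouring levels less than 2-fold apart have no order here.

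From ES cells to Day2, an interval that holds the formation of embryoid bodies as well as the first hours of RA, 2 of the 10 members were raised, Dcx (at least 3.95-fold) and Nefm, and 2 were lowered, Mapt and Stmn2, which fell 2.91-fold and 2.99-fold. Of all genes with a value, 8.82% were raised and 11.3% lowered in this step. From Day2 to Day3 the members lowered were 3, Nefl, Nefm and Nefh, against 7.76% of all genes. Map2 alone was raised, against 13.0% of all genes, and its rise of 1.18 on the log2 scale became 0.43 after the 75th percentile shift, 0.68 with the normexp correction, 0.52 with the floor at the ERCC probes, 0.87 with the mean over its probes, and -0.30 with no normalization. Nefh, at -1.25, became -0.98 with the mean over its probes, and Mapt, at 0.21, became 1.30. Dcx, at -0.84, became -0.11 with the normexp correction, 0.00 with the floor at the ERCC probes and 0.05 with the mean over its probes. After the 75th percentile alignment Dcx was at -1.69, which made 4 members lowered, against 17.0% of all genes there. With no normalization 6 were lowered, against 39.4%, as Dcx, Stmn2 and Ina were at -2.42, -1.53 and -1.09. From Day3 to Day4, as ventral progenitors form, Dcx and Nefm were raised, by 1.87 and 1.29 on the log2 scale, and Nefh was lowered 3.10-fold. With the normexp correction Dcx was at 1.18 and Nefm at 0.96. With no normalization Ina and Gap43, at -1.27 and -1.30, also passed 2-fold downwards, which made 3 lowered, against 9.95% of all genes there. In this quieter step 3.62% of all genes were raised and 4.86% lowered.

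These shares of all genes depend on the scaling. Among genes past 2-fold from ES cells to Day2, 43.9% were raised after quantile normalization, 70.2% after the 75th percentile shift and 82.9% with no normalization. From Day2 to Day3 these splits were 62.6%, 25.5% and 3.44%. With no normalization the split also moved from 42.7% to 20.1% from Day3 to Day4, from 49.5% to 94.0% from Day4 to Day7 and from 52.0% to 8.12% from ES cells to Day4. The median log2 change of all genes with no normalization was 0.20 from ES cells to Day2, -0.81 from Day2 to Day3, -0.48 from Day3 to Day4, 1.06 from Day4 to Day7 and -1.07 from ES cells to Day4. After the 75th percentile shift it was -0.25 from Day4 to Day7, -0.35 from ES cells to Day7 and -0.11 from ES cells to Day4. Nefl, Nefh and Ina joined the lowered members from ES cells to Day2 after that shift, at -1.13, -1.15 and -1.25, which made 5 lowered and 2 raised, against 7.0% and 16.5% of all genes there.

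The interval from ES cells to Day4 lay within a slide and was added after the data had been seen. Over it, 5 of the 10 members were lowered, Nefh, Stmn2, Ina, Nefl and Mapt, against 14.2% of all genes, and Dcx was raised, at least 8.06-fold, against 15.4%. The log2 changes of those lowered were -3.64 for Nefh, -2.93 for Stmn2, -2.04 for Ina, -1.59 for Nefl and -1.03 for Mapt. Mapt lay close to 2-fold, and with the mean over its probes it changed by -0.57. Dcx, at a log2 change of at least 3.01, was at 2.18 with no normalization, 1.84 with normexp, 1.44 with the ERCC floor and, below 2-fold, 0.31 with the mean over its probes. By that mean Map2, at 1.01, passed 2-fold. Nefh had the 73rd largest fall of the 14139 genes measured on both arrays. The changes of Tubb3, Map2, Nefm and Gap43 were 0.60, 0.87, 0.36 and -0.08. With no normalization Tubb3 and Nefm turned to -0.62 and -0.53, and Gap43, at -1.26, was the sixth member lowered, where 52.7% of all genes were. The median over the members was -0.55 and that over all genes 0.01.

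Day4 to Day7 is the interval in which the study places the passage from progenitors to neurons that have left the cell cycle. All 10 members were raised at least 2-fold over it and 0 were lowered, whereas 17.8% of all genes were raised and 18.1% lowered. The median log2 change was 6.40 over the members and -0.12 over all genes. This was the largest of the 4 steps for each member. Among the 14517 genes measured on both arrays, the rise of Nefm ranked 9, that of Dcx 10, that of Stmn2 18, that of Nefl 21 and that of Mapt 28. Map2, Ina, Gap43 and Tubb3 ranked 66, 79, 84 and 260, and Nefh ranked 580. The 10 rises were at least 2-fold under each alternative that gave a value, and the smallest of these values was 2.51 on the log2 scale, for Nefh.

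**Figure D2:**
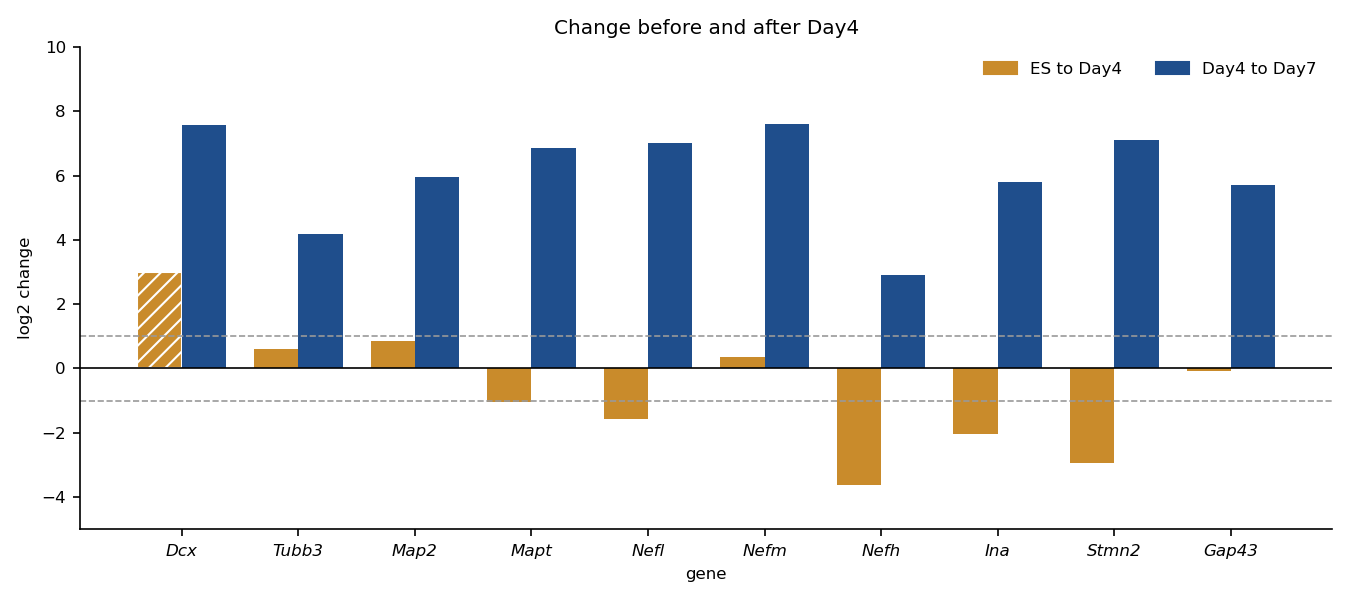
Log2 change (vertical axis) of each of the 10 genes (horizontal axis) from ES to Day4 and from Day4 to Day7, with 1 array per time point and no error bars. Dashed lines mark 2-fold, and the hatched bar is a lower bound because the ES signal of Dcx was too dim to be measured. From ES to Day4, 5 bars pass the lower line, and from Day4 to Day7 all 10 pass the upper line, Nefh with the smallest change (2.90).

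Against ES cells, 9 of the 10 members were raised on Day7 and 0 were lowered, with 23.2% of all genes raised and 24.4% lowered. The median log2 change of the members was 5.52, and that of all genes -0.07. Nefm rose 248-fold, Map2 112-fold, Mapt 56.9-fold, Gap43 49.6-fold, Nefl 42.6-fold, Tubb3 27.6-fold and Ina 13.5-fold. The log2 changes of several moved by over 1.5-fold after the 75th percentile shift, Mapt from 5.83 to 5.14, Gap43 from 5.63 to 4.72, Nefl from 5.41 to 4.53, Tubb3 from 4.79 to 4.0 and Ina from 3.75 to 2.72, and Map2 from 6.81 to 6.20 with normexp. After the 75th percentile shift the median of the members was 4.63, and Nefh, at -1.21, passed 2-fold downwards. For 8 members, Tubb3, Map2, Mapt, Nefl, Nefm, Ina, Stmn2 and Gap43, Day7 was the first time point at which the signal stood at least 2-fold above ES cells and stayed so. For Dcx it was Day2, with the reservation about dim probes given above, and for Nefh there was none. With the mean over its probes Map2 had already passed 2-fold on Day4, at 1.01 on the log2 scale.

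Other genes of the cytoskeleton were read against the shares of all genes from Day4 to Day7, 17.8% raised and 18.1% lowered. Of 31 further neuronal microtubule genes with a value from Day4 to Day7, 23 were raised and 0 lowered, and their median log2 change was 2.85. Dync1i1, a neuronal subunit of the retrograde motor dynein, rose 120-fold, and Kif5a, a kinesin of anterograde axonal transport, 47.5-fold. Stmn3, a relative of Stmn2, rose 71.4-fold, and Dclk1, a kinase related to doublecortin, 57.5-fold. From ES cells to Day4, 11 of the 30 such genes with a value were raised and 2 lowered, against 15.4% and 14.2% of all genes. With no normalization 2 were raised and 14 lowered, against 4.65% and 52.7%.

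Of 7 tubulins found in most cells, 1 was raised from Day4 to Day7 and 2 were lowered, with a median of -0.30, which turned to 0.55 with no normalization. These counts lie near the shares of all genes. Tubb6 fell 5.17-fold and Tuba1c 3.11-fold, and Tuba4a, the one raised, changed by 1.05 on the log2 scale and by 0.43 after the 75th percentile shift.

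Intermediate filaments outside the members moved in both directions, with 3 of 12 raised and 6 lowered from Day4 to Day7 and a median of -1.01, or 5 raised and 3 lowered with no normalization, where 52.1% of all genes were raised and 3.33% lowered. Prph, the peripherin of motor and sensory neurons, rose 14.2-fold. Its log2 signal was 10.84 for ES cells, 12.05 at Day2, 11.97 at Day3, 9.88 at Day4 and 13.71 at Day7, and the change from ES cells to Day4 was -0.96, or -1.07 after the 75th percentile shift. The keratins of simple epithelia Krt8, Krt18, Krt19 and Krt7 fell 7.08-fold, 5.31-fold, 3.86-fold and 4.54-fold from Day4 to Day7. Vim, the vimentin of progenitors and many other cells, was raised, by 1.5 on the log2 scale, and by 0.99 after the 75th percentile shift.

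Among 16 growth cone and actin genes, 12 were raised from Day4 to Day7 and 0 lowered, with a median of 2.23, and after the 75th percentile shift 10 were raised. Sncg, a synuclein abundant in motor and sensory neurons, rose 134-fold, and Rtn1, a reticulon of neuronal endoplasmic reticulum, 83.5-fold. Basp1, a growth cone protein related in function to Gap43, rose 5.43-fold.

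**Figure D3:**
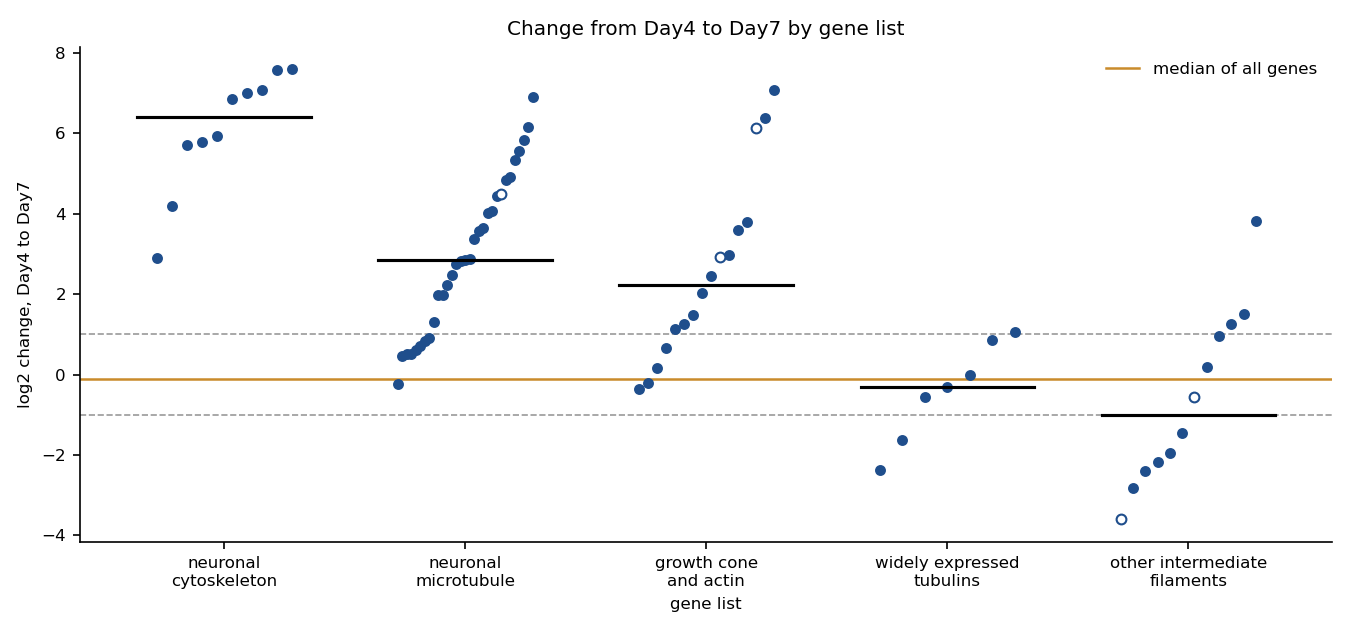
Log2 change from Day4 to Day7 (vertical axis) of each gene with a value in 5 gene lists (horizontal axis), with 1 array per time point. Points are genes, open points are bounds because the gene was not well above background on 1 of the arrays, black lines are list medians, the coloured line is the median of all genes (-0.12) and dashed lines mark 2-fold. The medians were 6.40, 2.85, 2.23, -0.30 and -1.01 from left to right.

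Markers of cell types were set beside these changes to check the labels. The position of an array on its slide is recorded in 2 places, which differed for the 4 arrays of the shared slide, and groups were taken from the labels. On these arrays the pluripotency gene Pou5f1 had log2 signals of 12.39, 11.68, 10.01 and 8.90 in the labelled time order, and Hes5, a Notch target of neural progenitors, 6.63, 8.47, 9.63 and 13.11. Dppa5a ran the same way as Pou5f1, at 17.57, 17.21, 16.72 and 16.11, and Tdgf1 did so up to Day3, at 14.14, 11.88, 10.10 and 10.30. Pax6, at 6.77, 7.98, 10.21 and 10.28, and Nkx6-1, at 6.72, 7.28, 8.60 and 12.73, ran the same way as Hes5. Each step of Dppa5a was under 2-fold, so its neighbouring levels have no order. The same holds for Pou5f1 and Nkx6-1 from ES cells to Day2 and for Pax6 from Day3 to Day4. Other markers of these 2 lists did not follow that course: Nanog had log2 signals of 9.20, 6.79, 8.85 and 9.98, Klf4 12.63, 8.66, 8.77 and 9.02, Esrrb 14.51, 12.05, 11.93 and 12.10, Sox2 12.70, 12.01, 12.01 and 11.44, and Olig2 10.34, 8.47, 7.87 and 11.47. Zfp42 and Fabp7 also left that course from ES cells to Day2, with changes of 0.14 and -0.61 on the log2 scale. Sox1 left it from Day3 to Day4, with a change of -0.88. Each of these departures was under 2-fold. The order of these 4 arrays thus rests on the labels. Some markers ran in that order, in part by steps under 2-fold, while others did not.

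The counts of markers changed from Day4 to Day7 stand against 17.8% of all genes raised and 18.1% lowered, or 52.1% and 3.33% with no normalization. Of 7 motor neuron markers with a probe, 7 were raised from Day4 to Day7, with a median log2 change of 5.06. Their summed signal, in units of normalized intensity, was 1311 for ES cells, 1334 at Day2, 1371 at Day3, 4285 at Day4 and 90283 at Day7, where Slc18a3, the vesicular acetylcholine transporter, was the largest contributor. Of 6 general neuronal markers 5 were raised in that step, and their summed signal was 19409, 13702, 14206, 20740 and 110309 over the same time points, with Elavl3 the largest contributor on Day7. All 6 were well above background in ES cells too. The Day7 label thus had its markers.

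Markers of other cells were examined in the same way. The summed signal of the ES cell markers was 251071 for ES cells, 165616 at Day2, 116580 at Day3, 79497 at Day4 and 32969 at Day7, led throughout by Dppa5a. From Day4 to Day7, 4 of the 7 were lowered, with a median of -1.18. With no normalization this median turned to 0.13 and fewer than 4 were lowered. Of the 7 neural progenitor markers 2 were raised and 2 lowered, and more were raised with no normalization. Pax6 and Olig2 fell 34.5-fold and 17.4-fold from Day4 to Day7, and Nkx6-1 rose 2.99-fold, whereas Sox1, Sox2 and Hes5 changed by 0.72, 0.49 and -0.53 on the log2 scale. Fabp7 rose 830-fold and was the largest contributor on Day7 to their summed signal, which was 9109, 6364, 8754, 23799 and 211644 in time order. The 8 glial markers summed to 3336, 2612, 3820, 4655 and 7715, with Mbp the largest contributor, and Gfap and S100b were dim at Day7. Of the 7 glial markers with a value from Day4 to Day7, Slc1a3 alone was raised, near the share of all genes, and 6 were with no normalization, where 52.1% of all genes were. Of 6 mesoderm and endoderm markers with a value, 5 were lowered, their list summed to 1111, 893, 2710, 3552 and 612, with Tbx6 the largest contributor on Day7, and Sox17, T, Afp, Myod1 and Des were not well above background on Day7. The part of these cell types in the changes of the members was not tested.

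The genes whose course was most like the median course of the members were sought over the 5 arrays, by the root mean square (RMS) difference of log2 signals after each gene's own mean was subtracted, among 18627 genes. The closest was Cdk5r1, the neuronal activator of the kinase Cdk5, with an RMS difference of 0.27. Its log2 signal was 10.17 for ES cells, 10.02 at Day2, 9.76 at Day3, 10.01 at Day4 and 15.58 at Day7. Of the 10 closest genes, only Cplx1, a complexin of synaptic vesicle release, and the neuropeptide gene Cartpt were likewise measured on each of the 5 arrays, with RMS differences of 0.31 and 0.39. The others, Vstm2a, Erich3, Nlgn1, Cbln4, Sez6, Sntg1 and Sim1, were dim on 2 to 4 of the arrays before Day7, and on those arrays their likeness was not measured. The members themselves differed from their median course by RMS values between 0.44 for Nefl and 2.30 for Nefh.

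Because the members rose together on Day7, the sequences around their transcription starts are shown where RefSeq windows of 300 bases (GRCm38.p6) were at hand, which was the case for 4 of the 10 genes, Tubb3, Map2, Ina and Dcx. Windows of Mapt, Stmn2, Nefl, Nefm, Nefh and Gap43 were not analysed here. They were searched on both strands for the GC box GGGCGG, the TATA box TATAAA and the E-box CANNTG, the core bound by basic helix-loop-helix factors. Of 32851 such windows of mouse genes, 35.7% held the GC box, 13.6% the TATA box and 72.3% the E-box. Capitals mark these matches, and each sequence runs 5′ to 3′ on the strand of its gene.
Tubb3, chr8:123411303-123411602, plus strand: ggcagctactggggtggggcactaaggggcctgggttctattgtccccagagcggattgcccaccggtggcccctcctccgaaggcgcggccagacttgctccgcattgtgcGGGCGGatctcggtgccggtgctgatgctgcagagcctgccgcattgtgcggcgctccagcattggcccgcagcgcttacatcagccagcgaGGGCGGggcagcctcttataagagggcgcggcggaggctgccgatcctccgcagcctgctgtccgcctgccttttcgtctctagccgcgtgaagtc
Map2, chr1:66175079-66175378, plus strand: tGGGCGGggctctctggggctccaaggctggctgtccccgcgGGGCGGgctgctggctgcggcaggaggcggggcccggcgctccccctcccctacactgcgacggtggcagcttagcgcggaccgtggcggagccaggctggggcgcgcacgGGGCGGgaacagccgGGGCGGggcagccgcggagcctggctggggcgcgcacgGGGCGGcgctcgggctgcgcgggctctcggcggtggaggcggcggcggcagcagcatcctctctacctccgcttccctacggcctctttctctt
Ina, chr19:47014431-47014730, plus strand: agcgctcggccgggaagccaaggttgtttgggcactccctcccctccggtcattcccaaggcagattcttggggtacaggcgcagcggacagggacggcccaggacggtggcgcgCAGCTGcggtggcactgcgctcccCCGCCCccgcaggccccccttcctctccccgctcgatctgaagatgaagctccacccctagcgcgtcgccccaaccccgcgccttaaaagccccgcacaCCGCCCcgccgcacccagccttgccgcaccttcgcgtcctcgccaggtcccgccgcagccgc
Dcx, chrX:143933170-143933469, minus strand: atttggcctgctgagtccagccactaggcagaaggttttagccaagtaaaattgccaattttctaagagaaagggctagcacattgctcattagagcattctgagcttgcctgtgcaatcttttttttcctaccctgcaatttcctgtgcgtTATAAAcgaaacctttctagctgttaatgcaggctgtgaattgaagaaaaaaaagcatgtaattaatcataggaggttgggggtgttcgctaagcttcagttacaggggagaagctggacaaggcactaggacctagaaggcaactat
The windows did not share a layout. Tubb3 held 2 GC boxes, Map2 5 and Ina 2, with 67.3%, 77.7% and 71.7% of bases being G or C, against a median of 52.7% over all windows. Dcx held 0 GC boxes and 1 TATA box, at 43.0% G or C, and a second, overlapping Dcx window held the same TATA box. An E-box was found in Ina alone, and its absence from the other windows says only that these letters are not there.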

How the data were processed

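Expression was measured on Agilent SurePrint G3 Mouse arrays, 1 for each of 5 time points. Per the file headers, the scanner output holds the intensity of each spot, which Feature Extraction (version 10.5.1 in the submitters' processing notes) had background-subtracted and detrended, with no normalization between arrays. The authors also deposited a table of log2 values. It equalled the mean log2 processed signal of the non-outlier spots of a probe minus a constant per array, within 0.01 for all 55681 mouse probes, and its medians were -3.55, -2.62, -3.71, -3.53 and -3.66 in time order.

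After removal of control and outlier spots, the mean log2 intensity of each probe entered quantile normalization (R 4.3.3, limma 3.58.1), because the study names quantile analysis. Later steps used Python 3.11.15, numpy 2.4.6, pandas 2.3.3 and matplotlib 3.10.9. Of the mouse probes, 26300 matched 19897 symbols through RefSeq accessions, and the probe brightest on average stood for its gene. For a probe that was not well above background, its own value or the array's lowest value among probes that were, whichever was higher, served as the floor, and changes from a floor are given as at least so large. No value was given where both arrays were dim, and a gene whose brighter value lay under the floor of the dimmer array counted as 0. The steps were tested on simulated data, noisy copies of the ES array with known changes. Changes within the range of an array were recovered there, and some that passed its brightest value were not. The copies lack the differences between the real arrays, so they do not show which way quantile normalization moved the rises here. The median member change from Day4 to Day7 was 6.40 with it, 6.00 after the 75th percentile shift and 7.32 with no normalization.

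Genes named were the members, any gene of the lists and the 10 genes with the most similar course. Ranks were taken over genes measured on both arrays, since values at the floor have no order. The members and lists were chosen with earlier results of these data known. Alternatives were alignment of arrays at the 75th percentile (called the 75th percentile shift), no normalization, normexp with an offset of 50 on median spot signals, the deposited log2 values, quantile normalization without Day2 or Day7, no filter on dim probes, probes well above background on both arrays, a floor at the 95th percentile of the ERCC probes, the mean over probes, and thresholds of 1.5-fold and 4-fold. Ttll7 and Mnx1 were listed but matched no probe.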

Additional observations from a re-analysis of the deposited data

Results flagged for a closer look

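On the Day2 array, 64.6% of the 96 ERCC control probes, which carry sequences foreign to mouse and served above only as an alternative floor, were well above background. On the other arrays the share was 7.29% in ES cells, 4.17% on Day3, 9.38% on Day4 and 7.29% on Day7. Of the members, this bears most on Dcx, whose Day2 change of at least 3.95-fold had no value with the floor at the ERCC probes.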

How the results depend on the processing

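No paired analysis was possible because no replicates exist to pair, nor could a replicate be left out. Slide effects could not be fitted, since the second slide holds the Day7 array and no other. A median was taken as moved when it shifted by 1.5-fold or more and a count when it differed by over 1.5 times. For the values that moved, the cause was not tested.

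The 10 members raised from Day4 to Day7 and the 9 raised from ES to Day7 stayed within 1.5 times of these counts, the second at 8 where dim probes were left out and Dcx had no value. The median change from Day4 to Day7 was 7.32 with no normalization, where the median of all genes was 1.06, and the median from ES to Day7 was 4.63 under the 75th percentile shift as well as by the deposited values. Members raised from ES to Day2 numbered 1 under normexp, with dim probes left out, with the floor at the ERCC probes and with the mean over probes, and 0 at 4-fold. From Day2 to Day3 their number was 0 after the 75th percentile shift, with no normalization, under normexp, in the deposited values, with the floor at the ERCC probes and at 4-fold, and 2 at 1.5-fold. The median of this step was -1.31 with no normalization, and Map2 turned to -0.30. From Day3 to Day4 the number raised was 1 under normexp and 0 at 4-fold. From ES to Day4, an interval added after seeing the data, 3 members were lowered at 4-fold, and the median was -1.68 with no normalization, where that of all genes was -1.07. No share of all genes was taken at 1.5-fold or 4-fold, so counts at those thresholds say nothing of the members as a group. The other counts given here without such a share describe the processing only.

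Of 556 values of single members under the alternatives, 234 lay within 0.01 of the main value, most because that alternative does not touch the member, and say nothing of stability. Of the others, which include the deposited values as a near repeat of the 75th percentile shift, 240 stayed within 1.5-fold, 81 moved (23 higher, 58 lower), changes of sign below 2-fold included, and 1 change of at least 2-fold turned. Low signal over background limits Dcx before Day4 and Map2 on Day2, where its signal of 6.73 lay under the ERCC floor of 7.39. From ES to Day2 Map2 changed by -0.03, and by 0.73 after the 75th percentile shift and 0.96 with no normalization.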

Other observations

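Syp and Snap25, both genes of synaptic vesicle release among the neuronal markers, had log2 signals of 12.43 and 13.53 in ES cells and 13.42 and 14.32 on Day7, changes of 0.99 and 0.79, whereas Syt1, the calcium sensor of that release, changed by 7.18. After the 75th percentile shift the changes were 0.48 for Syp, 0.09 for Snap25 and 7.13 for Syt1.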
